A study of Mus with 12 samples.

Results

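Platelets are cell fragments without a nucleus that are shed into blood by megakaryocytes, and the RNA they carry is what the megakaryocyte packed into them. Their surface receptors bind the vessel wall and fibrinogen, their signalling proteins turn that contact into activation, and their granules then release chemokines, adhesive proteins and clotting factors. Here 33 genes of platelets and megakaryocytes were followed in mouse blood. They were taken by gene symbol from a table of 25247 genes, and all 33 were found. The list was chosen with earlier results of these data known. By role, 9 encode granule cargo or granule membrane proteins, 10 encode surface glycoproteins and adhesion receptors, 10 encode signalling proteins, and 4 belong to the cytoskeleton, secretion and transcription. Of the 33, 20 are known in blood mainly from platelets, and the other 13 are also known from endothelium, leukocytes or erythroid cells.

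RNA of whole blood was sequenced from 12 female BALB/c mice, 3 per group and 1 library per mouse, in a study that asked what human umbilical cord mesenchymal stem cells (MSC) do in a mouse model resembling atopic dermatitis. Solvent mice received only the vehicle, a mixture of acetone and olive oil, on shaved skin. DNCB mice were sensitised with 1% 2,4-dinitrochlorobenzene, a contact sensitiser, and challenged repeatedly with 0.5% DNCB. The scMSC and scivMSC mice received the same DNCB and 2e6 MSC per dose, all of the 100 uL under the skin for scMSC, and 50 uL under the skin with 50 uL into the tail vein for scivMSC. The mice were 6 weeks old when bought, MSC were given 4 times between days 13 and 25, and blood was taken on day 30. No group received the cell medium without cells, or MSC without DNCB, and the blood was not sorted. A change in a transcript can thus come from the number of platelets, from the RNA in each, or from other cells that share the gene. Levels scaled to the library total can also move with the rest of the library. Fewer cells of a type and less RNA per cell cannot be told apart in these data.

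The libraries held 52.2e6 to 65.1e6 estimated counts, of which haemoglobin genes took 78.4% to 89%. The remainder was smallest in scivMSC replicate 2, with 5.84e6 counts and 11806 genes at 4 counts or more. Levels are given in FPKM, fragments per kilobase of gene scaled to the library total, haemoglobin included. Fold changes come from edgeR's quasi-likelihood test with libraries scaled in the same way, by total counts. Calls required a change over 2-fold and a Benjamini-Hochberg adjusted p under 0.05 over 5527 tested genes. The median log2 fold change of all tested genes was -0.63 for scMSC and -1.53 for scivMSC against DNCB. TMM scaling, which places the bulk of genes near 0, raised fold changes by 0.69 and 1.57 in those contrasts, and its values are given where they turn the call of a gene described.

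Platelet transcripts were abundant in every mouse. Nrgn, which encodes the calmodulin-binding protein neurogranin, ranked between position 21 and 42 of all genes by FPKM, Pf4 between 23 and 53, and Gng11 between 24 and 50. Ppbp ranked between 37 and 51, and Myl9 between 44 and 100. Of the 33 members, 30 passed the filter of at least 1 FPKM in at least 3 libraries. The other 3 were Selp, Sparc and F2rl3, with highest values of 1.1, 0.659 and 0.558 FPKM. In the F test over the 4 groups, 24 of the 30 passed, against 72.3% of all tested genes. The 6 that did not pass were Ppbp, Tgfb1, Itgb3, Cd9, Fermt3 and Plek.

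**Figure D1:**
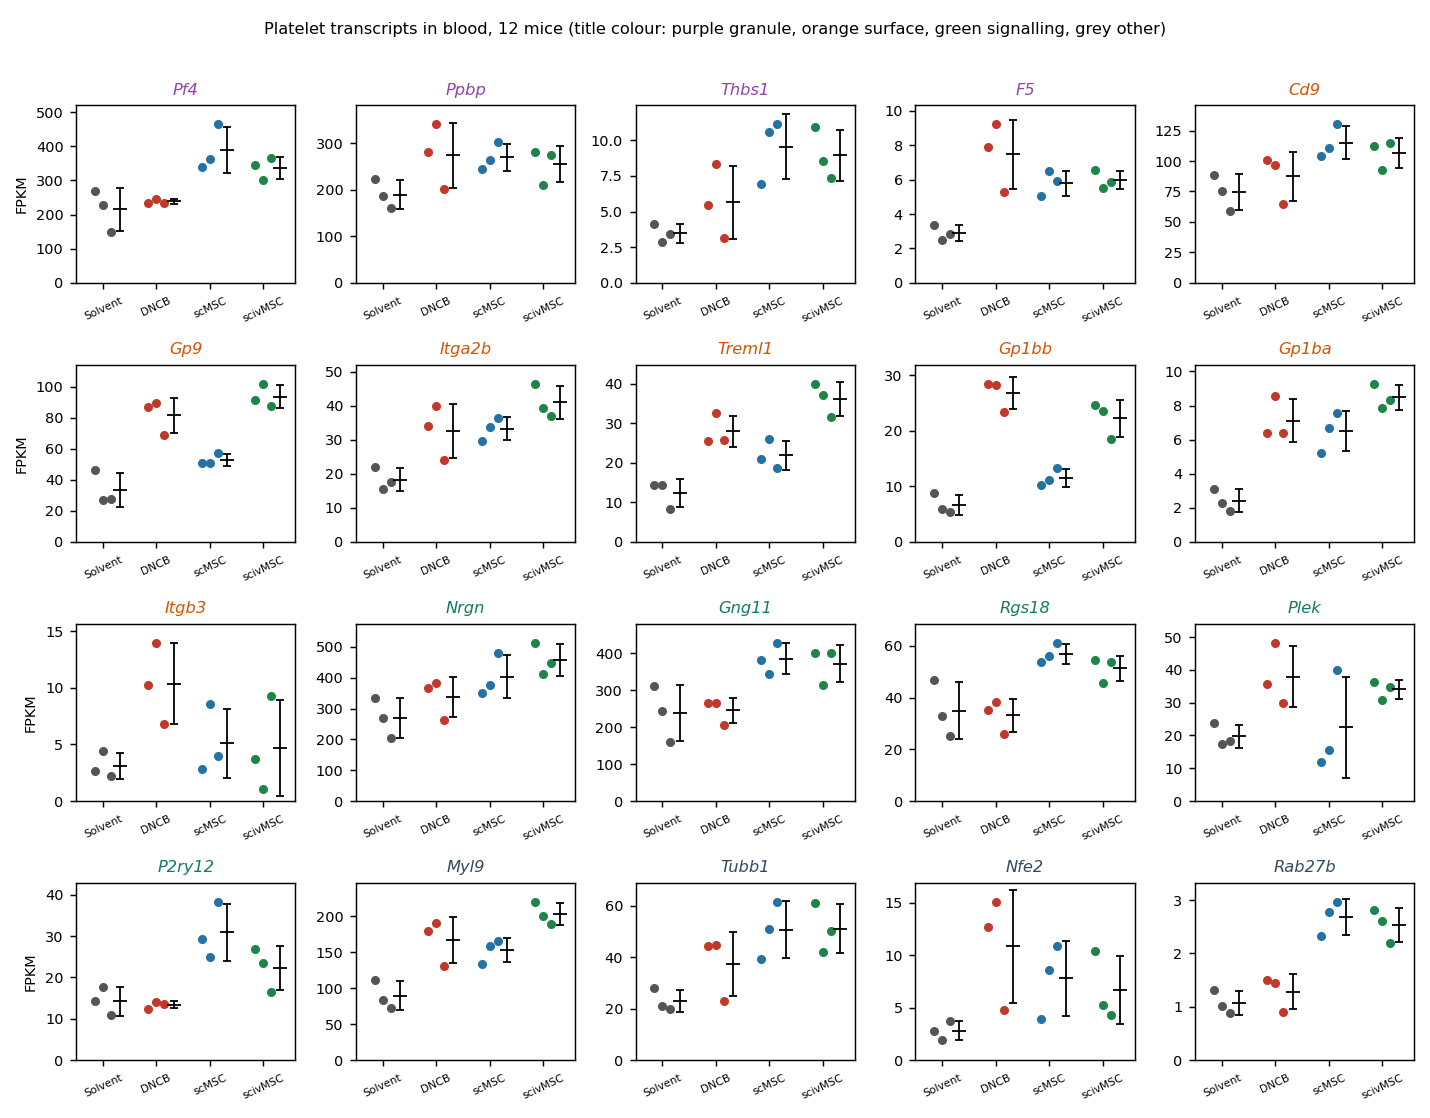
FPKM of 20 members in each of the 12 libraries (linear axes from 0), with points for single mice in 4 groups and bars for the mean ± SD (n = 3). Gp1bb sits between 23.4 and 28.5 in DNCB and between 10.2 and 13.3 in scMSC, while P2ry12 lies between 12.4 and 14.1 in DNCB and between 25 and 38.3 in scMSC.

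Among the surface receptors, the subunits of the glycoprotein Ib-IX-V complex, which binds von Willebrand factor, were higher in DNCB mice than in Solvent mice. Gp1bb, the beta subunit, was the most changed: it stood at 8.8, 5.89 and 5.41 FPKM in the Solvent libraries, 28.5, 28.3 and 23.4 in DNCB, 10.2, 11.1 and 13.3 in scMSC, and 24.7, 23.5 and 18.5 in scivMSC. The DNCB and scivMSC libraries all lay above every Solvent and scMSC library. Gp9, a further subunit, measured 46.3, 27 and 27.7 FPKM in Solvent, 86.8, 89.5 and 68.7 in DNCB, 50.6, 50.8 and 57 in scMSC, and 91.1, 102 and 87.5 in scivMSC, again with DNCB and scivMSC above the other groups. Gp1ba, the ligand-binding subunit, given here after its values were seen, had 3.13, 2.31 and 1.81 FPKM in Solvent, 6.38, 8.56 and 6.41 in DNCB, 5.24, 6.7 and 7.54 in scMSC, and 9.29, 7.87 and 8.3 in scivMSC. Unlike Gp1bb, Gp1ba overlapped between DNCB and scMSC.

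Itga2b, the alpha subunit of the fibrinogen receptor, measured 21.9, 15.5 and 17.5 FPKM in Solvent, 33.9, 39.8 and 24.2 in DNCB, 29.6, 33.7 and 36.4 in scMSC, and 46.5, 39.3 and 37.1 in scivMSC. All 9 libraries of the DNCB-treated groups lay above the Solvent libraries. Treml1, a receptor stored in granules and brought to the surface on activation, had 14.4, 14.4 and 8.32 FPKM in Solvent, 25.6, 32.5 and 25.8 in DNCB, 21, 25.9 and 18.7 in scMSC, and 40, 37 and 31.5 in scivMSC. Cd9, a tetraspanin that leukocytes also carry, had 88.8, 75.3 and 59 FPKM in Solvent, 101, 96.4 and 64.7 in DNCB, 104, 111 and 130 in scMSC, and 112, 92.4 and 115 in scivMSC. Cd9 overlapped between Solvent and DNCB. Itgb3, the beta partner of Itga2b, was erratic, with 2.68, 4.42 and 2.22 FPKM in Solvent, 10.3, 14 and 6.81 in DNCB, 2.79, 8.54 and 3.98 in scMSC, and 3.73, 1.04 and 9.29 in scivMSC. It was added after its values were seen, because it did not follow its partner. The remaining surface members ranged from 5.14 to 17.5 FPKM for Gp5, from 1.98 to 5.4 for the collagen receptor Gp6, and from 6.02 to 20.3 for the podoplanin receptor Clec1b.

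The granule members were led by a pair of chemokines. Pf4, platelet factor 4, stood at 270, 227 and 148 FPKM in Solvent, 235, 247 and 234 in DNCB, 338, 364 and 464 in scMSC, and 345, 301 and 365 in scivMSC. Its DNCB libraries lay inside the Solvent range, and every library of the MSC groups lay above both. Ppbp, the precursor of neutrophil-activating peptide, which is encoded next to Pf4, measured 222, 186 and 160 FPKM in Solvent, 281, 340 and 201 in DNCB, 245, 263 and 302 in scMSC, and 281, 211 and 275 in scivMSC. The groups overlapped, except that scMSC lay above Solvent.

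Thbs1, thrombospondin, had 4.16, 2.85 and 3.39 FPKM in Solvent, 5.47, 8.31 and 3.17 in DNCB, 6.93, 10.6 and 11.1 in scMSC, and 10.9, 8.54 and 7.38 in scivMSC. F5, coagulation factor V, had 3.39, 2.48 and 2.84 FPKM in Solvent, 7.92, 9.2 and 5.25 in DNCB, 5.02, 6.47 and 5.89 in scMSC, and 6.54, 5.53 and 5.88 in scivMSC. F5 was thus above Solvent in all 9 other libraries, whereas Thbs1 overlapped between Solvent and DNCB. Vwf ranged from 1.87 to 5.43 FPKM, the adhesive protein gene Mmrn1 from 2.42 to 6.43, and Tgfb1, which leukocytes also express, from 3.07 to 8.4. Selp, which encodes P-selectin of the granule membrane, was below the filter and not tested. Given here after its values were seen, it stood at 0.18, 0.159 and 0.129 FPKM in Solvent, 0.629, 1.1 and 0.702 in DNCB, 0.22, 0.233 and 0.35 in scMSC, and 0.695, 0.208 and 0.247 in scivMSC. All DNCB libraries were above all Solvent and scMSC libraries for Selp. Sparc lay between 0.0534 and 0.659 FPKM.

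Among the signalling members, Nrgn measured 334, 268 and 204 FPKM in Solvent, 367, 383 and 263 in DNCB, 350, 377 and 482 in scMSC, and 514, 412 and 448 in scivMSC. Gng11, a G protein gamma subunit, had 311, 244 and 160 FPKM in Solvent, 265, 264 and 206 in DNCB, 381, 344 and 428 in scMSC, and 400, 314 and 400 in scivMSC. Rgs18, which limits G protein signals, had 46.8, 32.8 and 25 FPKM in Solvent, 35.2, 38.3 and 25.8 in DNCB, 53.6, 55.9 and 61.2 in scMSC, and 54.5, 45.8 and 53.6 in scivMSC. For Gng11 and Rgs18 the DNCB libraries fell within the Solvent range and all MSC libraries lay above the DNCB ones. Plek, pleckstrin, a protein kinase C substrate that leukocytes share, had 23.8, 17.3 and 18.2 FPKM in Solvent, 35.7, 48.3 and 29.9 in DNCB, 11.8, 15.6 and 40 in scMSC, and 36.3, 30.9 and 34.9 in scivMSC. Its scMSC replicate 3 stood apart from the other scMSC libraries. P2ry12, the ADP receptor that antiplatelet drugs block, chosen after its values were seen, had 14.2, 17.8 and 10.8 FPKM in Solvent, 12.4, 14.1 and 13.6 in DNCB, 29.3, 25 and 38.3 in scMSC, and 26.9, 23.6 and 16.5 in scivMSC. All libraries of the MSC groups exceeded all DNCB libraries. The other signalling members ranged from 2.42 to 11.3 FPKM for the ATP-gated channel P2rx1, from 0.776 to 3.4 for the thrombin receptor cofactor F2rl2, from 8.19 to 20.6 for the integrin activator Fermt3, and from 9.4 to 24.2 for the lipoxygenase Alox12. F2rl3, the main thrombin receptor of mouse platelets, had only 8 to 78 counts per library.

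In the last group, Tubb1, the platelet beta tubulin, measured 28, 21.2 and 19.9 FPKM in Solvent, 44.4, 44.8 and 22.9 in DNCB, 39.4, 51.1 and 61.6 in scMSC, and 61.1, 42 and 50.1 in scivMSC. Myl9, a myosin light chain, had 112, 83.8 and 72.8 FPKM in Solvent, 179, 191 and 131 in DNCB, 134, 158 and 166 in scMSC, and 220, 200 and 189 in scivMSC. All Myl9 values of the DNCB-treated groups were above Solvent. Rab27b, a GTPase of granule secretion, had 1.31, 1.02 and 0.88 FPKM in Solvent, 1.5, 1.44 and 0.905 in DNCB, 2.32, 2.78 and 2.97 in scMSC, and 2.82, 2.6 and 2.19 in scivMSC. Nfe2, a transcription factor of late megakaryocytes that erythroid cells share, had 2.77, 1.9 and 3.74 FPKM in Solvent, 12.7, 15.1 and 4.78 in DNCB, 3.9, 8.63 and 10.9 in scMSC, and 10.4, 5.3 and 4.31 in scivMSC. Rab27b was separated by MSC and not by DNCB, while Nfe2 was above Solvent in all DNCB-treated mice with wide spread.

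In DNCB against Solvent, 10 of the 30 tested members were called higher and none lower. The background was 15.6% of all tested genes called higher and 4.87% called lower. The members' median log2 fold change was 0.70, against 0.06 for all genes, and 28 of 30 were above 0. Gp1bb rose by a log2 fold change of 2.00 ± 0.29 (SE, edgeR adjusted p = 0.000111). Nfe2 followed with 1.95 ± 0.48 (adjusted p = 0.00779), then Itgb3 with 1.74 ± 0.59 (adjusted p = 0.0437) and Gp1ba with 1.56 ± 0.31 (adjusted p = 0.00164). The other called members were F2rl2 (log2 fold change 1.48), F5 (1.36), P2rx1 (1.30), Gp9 (1.28), Treml1 (1.18) and Gp5 (1.02). By role, the calls were 6 of 10 surface members, 1 of 7 tested granule members, 2 of 9 tested signalling members and 1 of 4 in the last group. Median changes were 1.10 for surface, 0.57 for granule, 0.57 for signalling and 0.80 for the last group.

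Among the members not called, 4 had changes near 0: Pf4 had a log2 fold change of 0.15 ± 0.23, Gng11 0.04 ± 0.24, Rgs18 -0.07 ± 0.26 and P2ry12 -0.10 ± 0.28 (adjusted p = 0.707, 0.928, 0.882 and 0.853). The other abundant members Ppbp and Nrgn had 0.53 ± 0.23 and 0.33 ± 0.22 (adjusted p = 0.11 and 0.312). Vwf, Itga2b and Myl9 passed on adjusted p alone, with log2 fold changes of 0.91, 0.83 and 0.90. Under TMM scaling 8 members were called higher, against 16.1% of all genes, and none lower, against 11.5%, and Itgb3 (log2 fold change 1.49, adjusted p = 0.0746) and Gp5 (0.85) were no longer called. Leaving out 1 library gave 7 to 13 calls. Without Solvent replicate 2, the calls of Itgb3, Gp5 and P2rx1 were lost, with log2 fold changes of 2.08, 0.92 and 1.05, and the count was 7. Without Solvent replicate 3, the calls of Itgb3 (1.55), Gp5 (0.94) and Treml1 (0.96) were lost, and without DNCB replicate 2 those of Itgb3 (1.46) and Gp5 (0.85). Itgb3 was also not called without Solvent replicate 1 (1.65), DNCB replicate 1 (1.75) or scMSC replicate 3 (1.74).

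**Figure D2:**
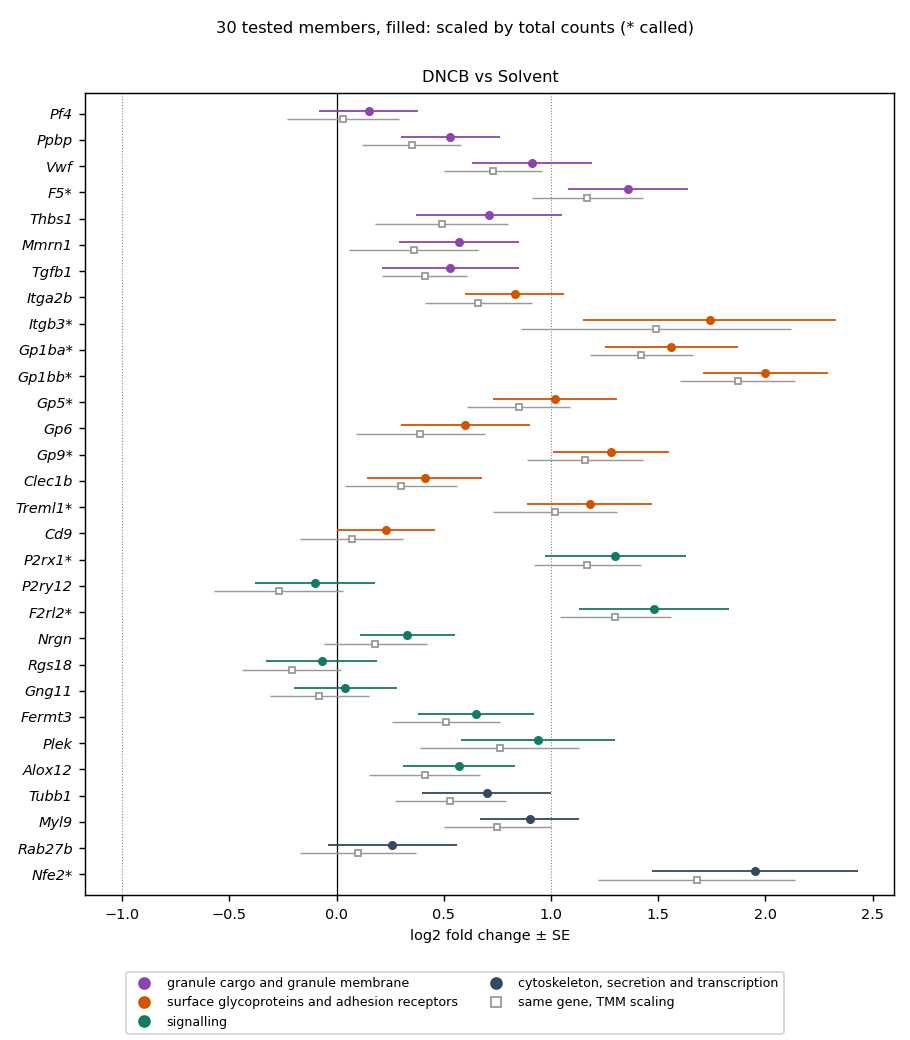
Log2 fold change of the 30 tested members between DNCB and Solvent ± SE, coloured by role and scaled by total counts, with the TMM-scaled value of the same gene as an open square (* called at adjusted p under 0.05 and over 2-fold). Gp1bb lies at 2.00 and Pf4 at 0.15, and the 6 called surface members lie at 1.02 and above.

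Other cells moved in the same comparison. The summed FPKM of 10 neutrophil markers was 217 to 441 in Solvent, 6646 to 10447 in DNCB, 546 to 693 in scMSC and 224 to 671 in scivMSC. All 10 were called higher in DNCB than in Solvent and lower in both MSC groups than in DNCB, and none was at 0 in all libraries. The summed FPKM of 8 T cell markers was 55.7 to 91.5 in Solvent, 21.2 to 30.2 in DNCB, 28.6 to 38.7 in scMSC and 7.24 to 19.6 in scivMSC. The part of these cells in the members' changes was not tested. Among the 19 tested members known in blood mainly from platelets, 8 were called higher in DNCB and the median was 0.83. Among the 7 shared with leukocytes, 1 was called (P2rx1) and the median was 0.65. The endothelial markers other than Pecam1, which platelets also carry, were at or under 0.341 FPKM in all libraries.

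After subcutaneous MSC, P2ry12 and Rab27b were called higher than in DNCB mice and Gp1bb was called lower. The background was 1.27% of all genes called higher and 24.9% called lower. P2ry12 rose by a log2 fold change of 1.20 ± 0.28 (edgeR adjusted p = 0.00544), and Rab27b by 1.06 ± 0.30 (adjusted p = 0.0151). Gp1bb had a log2 fold change of -1.22 ± 0.28 (adjusted p = 0.00439). The members' median was 0.01 where that of all genes was -0.63, and 16 of 30 were above 0. Pf4 (log2 fold change 0.69) and Rgs18 (0.77) passed on adjusted p alone.

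Scaling decided these calls in part. Under TMM scaling 11 members were called higher, against 8.74% of all genes, and none lower, against 12.3%. The 11 were Pf4, Thbs1, Mmrn1, Gp6, Clec1b, Cd9, P2ry12, Rgs18, Gng11, Tubb1 and Rab27b, with log2 fold changes between 1.09 and 1.87. Gp1bb kept its sign under TMM at -0.53 but lost its call (adjusted p = 0.137). Itgb3 (-0.22), P2rx1 (-0.12) and Plek (-0.06) also stayed below 0 there, and the other 26 members lay above 0. Rab27b was not called without DNCB replicate 3 (log2 fold change 0.86), scMSC replicate 2 (1.03) or scMSC replicate 3 (0.98), and the counts without 1 library were 1 to 3 higher and 1 to 2 lower. Without scMSC replicate 3 or without scivMSC replicate 2, 2 members were called lower.

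After MSC by both routes, 0 of 30 members were called in either direction against DNCB, where 1.43% of all genes were called higher and 62% lower. At an unadjusted p under 0.05 there were 7 members by edgeR, and 29 by DESeq2, which scales differently. The share of all genes at that threshold was not computed, so these counts have no background. Rab27b came closest, with a log2 fold change of 0.98 ± 0.30 (edgeR adjusted p = 0.00884). P2ry12 had 0.74 ± 0.28 (adjusted p = 0.0284), Rgs18 0.63 ± 0.26 (adjusted p = 0.0426) and Gng11 0.59 ± 0.24 (adjusted p = 0.035). Tgfb1 passed on adjusted p in the other direction, at -0.77 ± 0.32 (adjusted p = 0.041). The members' median was 0.30, while that of all genes was -1.53.

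TMM scaling turned this comparison into 27 of 30 members called higher, against 20.6% of all genes, with a median log2 fold change of 2.00, and none lower, against 18.9%. The 3 not called also changed sign: Tgfb1 from -0.77 to 0.91, Itgb3 from -1.15 to 0.46 and Nfe2 from -0.71 to 0.92. Tgfb1 passed on adjusted p in both directions (edgeR adjusted p = 0.041 and 0.00207). Under that scaling F5 (1.38), Ppbp (1.58), Gp1bb (1.43), P2rx1 (1.38), F2rl2 (1.44) and Plek (1.54) were called higher, although scaling by total counts put them between -0.32 and -0.11. Erythroid markers moved in the same manner: 0 of 6 tested were called with total scaling, with a median of 0.69, and 6 of 6 were called higher with TMM, with a median of 2.38. Their summed FPKM was 4067 to 5065 in DNCB and 4458 to 5081 in scivMSC. Without DNCB replicate 1, DNCB replicate 2 or scivMSC replicate 3, 1, 2 and 1 members were called higher with total scaling, and without scivMSC replicate 1 or scivMSC replicate 3, 1 was called lower.

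**Figure D3:**
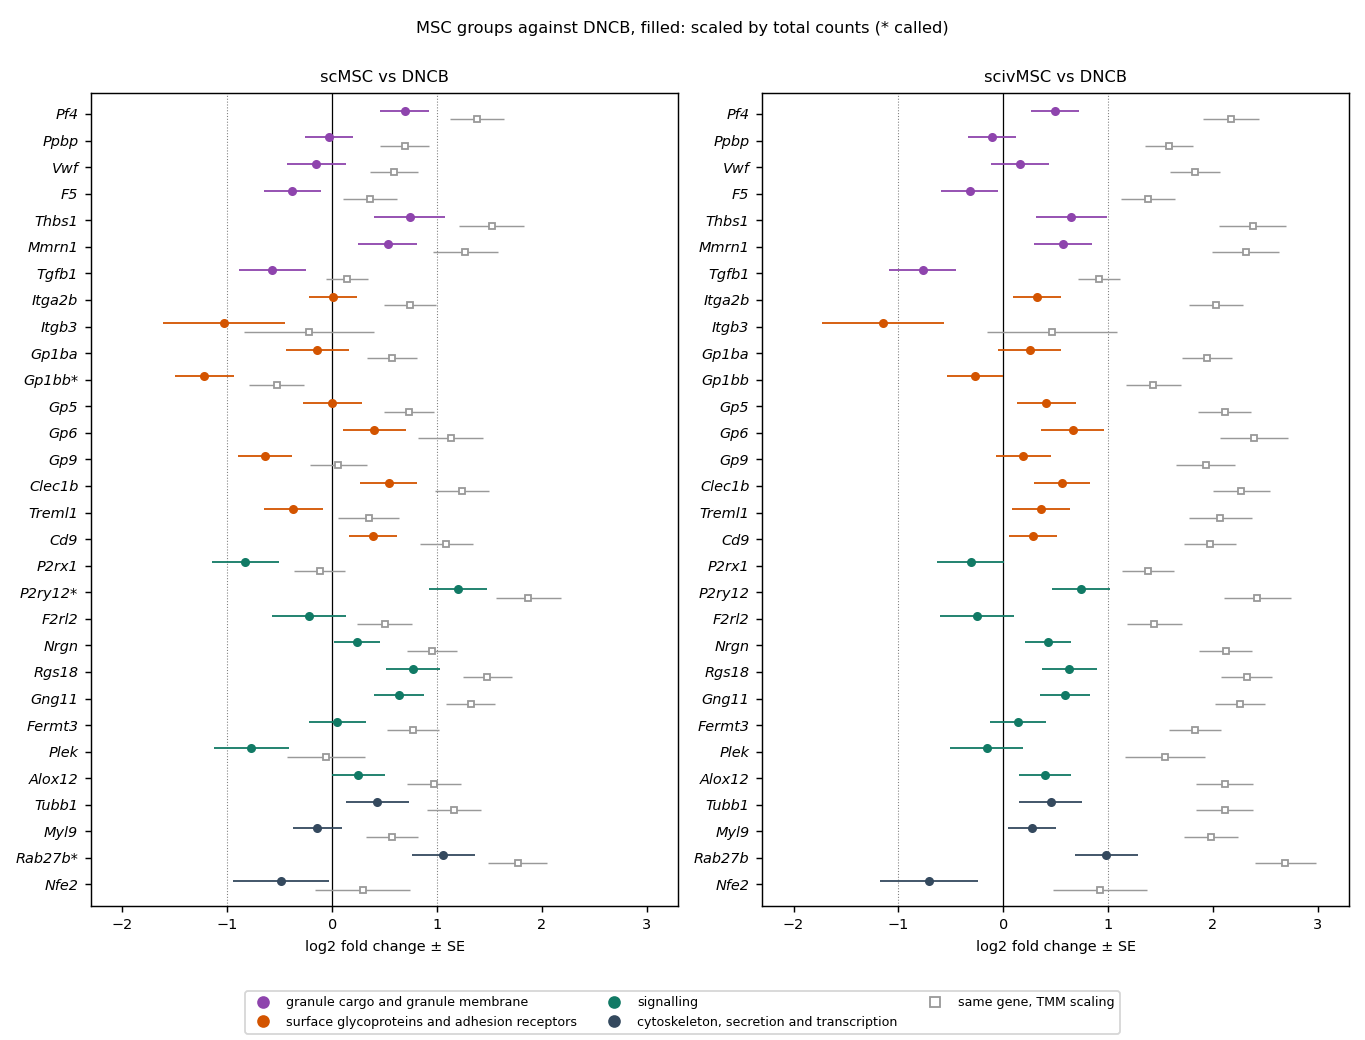
Log2 fold change ± SE of the 30 tested members for scMSC (left) and scivMSC (right) against DNCB, coloured by role and scaled by total counts, with TMM-scaled values as open squares (* called). In scMSC the members run from -1.22 (Gp1bb) to 1.20 (P2ry12), and in scivMSC the filled points run from -1.15 (Itgb3) to 0.98 (Rab27b) while all open squares lie above 0.

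The routes were compared directly. No member was called between scivMSC and scMSC, where 0.344% of all genes were called higher in scivMSC and 30.4% lower. At an unadjusted p under 0.05 there were 3 members by edgeR and 27 by DESeq2, again without a share of all genes at that threshold. Gp1bb was higher in scivMSC by a log2 fold change of 0.95 ± 0.28 (edgeR adjusted p = 0.0217) and Gp9 by 0.83 ± 0.26 (adjusted p = 0.029), both under 2-fold, and their libraries did not overlap. Treml1 had 0.73 ± 0.29 (adjusted p = 0.0584). The median of members was 0.05 and that of all genes -0.87. Under TMM scaling 17 members were called higher in scivMSC, against 13.1% of all genes, and none lower, against 4.92%, with Gp1bb (1.96), Gp9 (1.87) and Treml1 (1.72) at the top. Pf4 (-0.20 with total scaling, 0.79 with TMM) and P2ry12 (-0.46 and 0.55) changed sign between the scalings. Without scMSC replicate 3 or scivMSC replicate 3, 2 and 1 members were called higher.

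Between scMSC and Solvent, Gp1ba was the 1 member called, higher in scMSC with a log2 fold change of 1.41 ± 0.31 (edgeR adjusted p = 0.0431), and 0.326% of all genes were called higher and 0.326% lower. At an unadjusted p under 0.05 there were 26 members by edgeR and 28 by DESeq2. The share of all genes at that threshold was not computed. Of the 30 members, 29 were above 0, against 21.3% of all genes. Their median was 0.81, where that of all genes was -0.59. With TMM scaling 27 members were called higher, against 7.29% of all genes, and none lower, against 1.21%. Tgfb1, Itgb3 and Plek were not. The call of Gp1ba was lost with the replicate number as a block (1.43, adjusted p = 0.0648, leaving 0 members called) and without the filter on low values (1.41, adjusted p = 0.0587). The count without 1 library ran from 0 to 9. It was 0 without Solvent replicate 1, 2 or 3, DNCB replicate 1, any of the scMSC libraries, or scivMSC replicate 3. Without DNCB replicate 3 it was 1, Thbs1 (1.45) in place of Gp1ba (adjusted p = 0.0543). It was 2 without DNCB replicate 2, and 9 without scivMSC replicate 1 or scivMSC replicate 2.

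In scivMSC, 16 of 30 members were called higher than in Solvent and none lower, where 2.59% of all genes were called higher and 59.2% lower. Gp1ba rose most, by a log2 fold change of 1.80 ± 0.31 (edgeR adjusted p = 0.000263), followed by Gp1bb with 1.72 ± 0.28 (adjusted p = 0.000209), Treml1 with 1.54 ± 0.29 (adjusted p = 0.000441) and Gp9 with 1.47 ± 0.27 (adjusted p = 0.000364). By role, 7 of 10 surface members were called, 4 of 7 granule members (Vwf, F5, Thbs1 and Mmrn1), 1 of 9 signalling members (F2rl2) and 4 of 4 in the last group. A further 7 members passed on adjusted p alone, P2rx1 (log2 fold change 0.99), Clec1b (0.97), Alox12 (0.97), Fermt3 (0.79), Nrgn (0.77), Pf4 (0.64) and Gng11 (0.64). With TMM scaling 30 of 30 were called higher, against 22.4% of all genes called higher and 13.4% lower. Calls without 1 library ranged from 12 to 19. Nfe2 was not called without scivMSC replicate 1 (0.76), Solvent replicate 1 (1.24) or Solvent replicate 2 (1.03). Vwf (0.90), F5 (0.97) and Tubb1 (0.99) were not called without scivMSC replicate 1, and Vwf (0.99) and F5 (0.94) were not called without Solvent replicate 2.

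**Figure D4:**
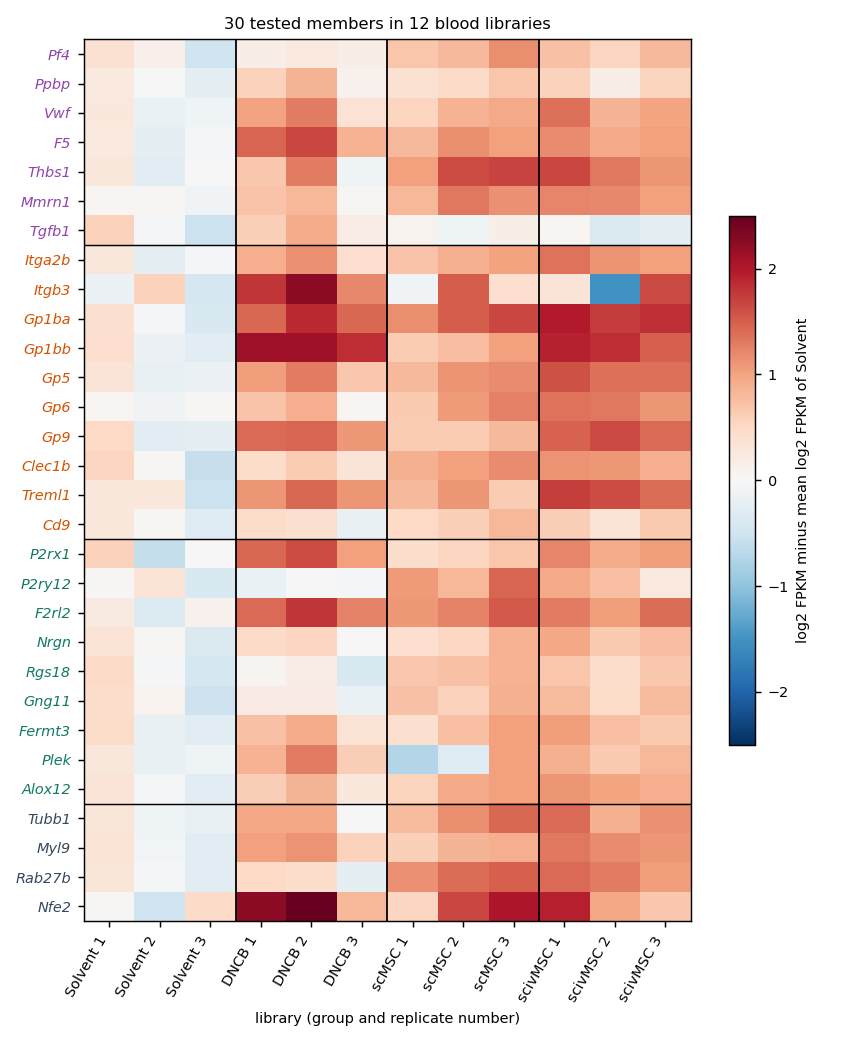
Log2 FPKM of the 30 tested members (rows, grouped by role) in the 12 libraries (columns), minus the mean log2 FPKM of Solvent. Gp1bb and Gp9 are highest in DNCB and in scivMSC, while Gp1ba is high in all DNCB-treated groups, scMSC included. Pf4, P2ry12, Rgs18 and Rab27b are high in the MSC groups and near Solvent in DNCB, and Itgb3 and Plek vary within groups.

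Ratios of members within a library do not depend on scaling. Against Itga2b, Pf4 had log2 ratios of 3.53 ± 0.41 in Solvent, 2.90 ± 0.33 in DNCB, 3.54 ± 0.12 in scMSC and 3.04 ± 0.22 in scivMSC (SD, n = 3 each, exact permutation test over the 4 groups, two-sided, p = 0.0643). Plek had 0.11 ± 0.05, 0.22 ± 0.13, -0.77 ± 0.79 and -0.27 ± 0.15 in the same order (exact permutation p = 0.0578), and F2rl3 had -5.93 ± 1.22, -8.13 ± 0.80, -7.25 ± 0.06 and -7.92 ± 1.23 (exact permutation p = 0.0769). None of the 3 ratios passed 0.05, and after adjustment over the 3 each stood at 0.0769. For Pf4 the p became 0.0175 without Solvent replicate 3 and 0.0292 without DNCB replicate 3, for F2rl3 0.0195 without Solvent replicate 2 and 0.0311 without scivMSC replicate 1, and for Plek 0.000195 without scMSC replicate 3, all by the exact permutation test.

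The balance of Gp1bb and Pf4 was described after their values were seen, and no test was made. There were 30.7, 38.6 and 27.4 FPKM of Pf4 per FPKM of Gp1bb in the Solvent libraries, 8.24, 8.73 and 9.98 in DNCB, 33, 32.7 and 34.9 in scMSC, and 14, 12.8 and 19.7 in scivMSC. DNCB was lowest, scivMSC was next without overlap, and Solvent and scMSC overlapped. The mean log2 FPKM of the tested surface members minus that of the tested granule members gave -0.177 ± 0.0751 in Solvent, 0.257 ± 0.119 in DNCB, -0.103 ± 0.0643 in scMSC and 0.253 ± 0.0839 in scivMSC (SD, n = 3). Here too DNCB and scivMSC lay above Solvent and scMSC without overlap. Surface minus tested signalling members gave -1.06 ± 0.0872, -0.557 ± 0.0289, -0.897 ± 0.21 and -0.683 ± 0.0833 in the same order (SD, n = 3). There scMSC and scivMSC overlapped, with scMSC replicate 2 at -0.68 and scivMSC replicate 2 at -0.75. The summed FPKM of the 33 members, as a share of all FPKM outside haemoglobin, was 1.84% ± 0.314 in Solvent, 2.14% ± 0.246 in DNCB, 3.21% ± 0.448 in scMSC and 3.82% ± 0.258 in scivMSC (SD, n = 3), and as a share of all FPKM it was 0.118%, 0.161%, 0.185% and 0.193%.

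**Figure D5:**
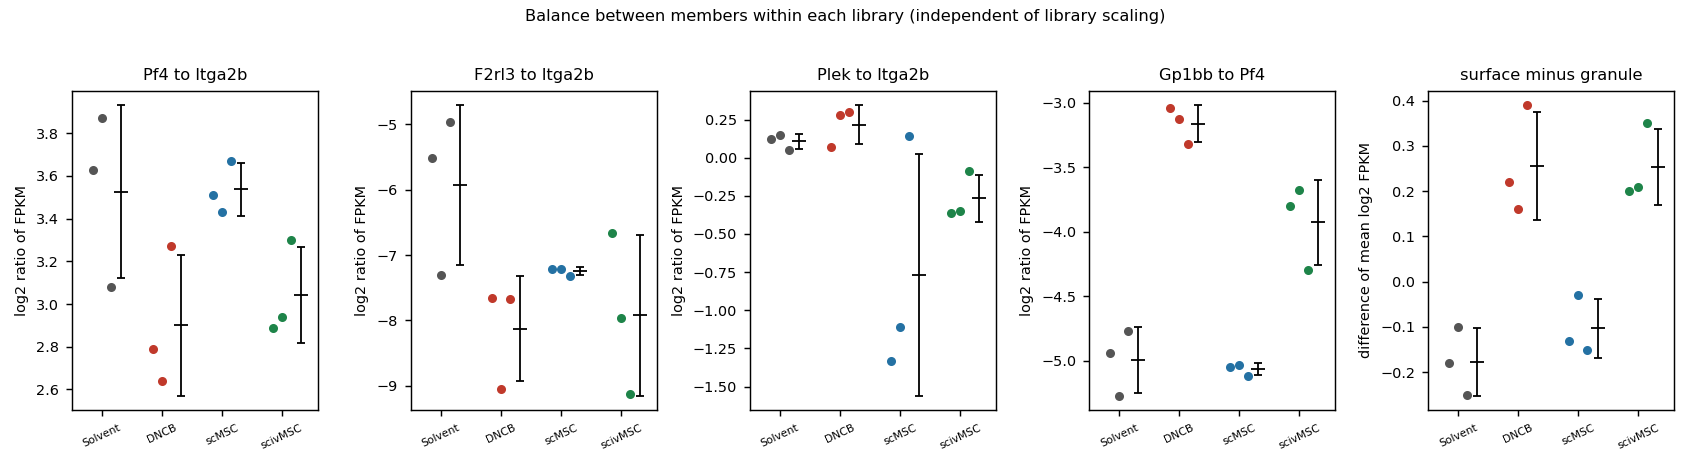
Log2 ratio of Pf4, F2rl3 and Plek to Itga2b, log2 ratio of Gp1bb to Pf4, and mean log2 FPKM of tested surface minus tested granule members, for 12 libraries with the mean ± SD of each group (n = 3). The Gp1bb to Pf4 ratio averages -4.99 in Solvent, -3.16 in DNCB, -5.07 in scMSC and -3.93 in scivMSC.

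Other platelet genes were read from 5 lists with 75 genes, of which 54 were tested. DNCB had 16 higher and 3 lower calls relative to Solvent, where 15.6% and 4.87% of all genes were called (TMM scaling 15 and 4, with 16.1% and 11.5%). Relative to DNCB, scMSC had 6 higher and 10 lower calls, where the shares were 1.27% and 24.9% (TMM 14 and 4, with 8.74% and 12.3%). For scivMSC these counts were 7 and 17, with shares of 1.43% and 62% (TMM 31 and 5, with 20.6% and 18.9%). Between scivMSC and scMSC they were 0 and 6, with 0.344% and 30.4% (TMM 14 and 1, with 13.1% and 4.92%). Relative to Solvent, scMSC had 2 and 0, with 0.326% in each direction (TMM 23 and 0, with 7.29% and 1.21%), and scivMSC had 11 and 15, with 2.59% and 59.2% (TMM 36 and 1, with 22.4% and 13.4%). By list, median log2 fold changes of DNCB against Solvent were 0.16 for receptors and 0.98 for granule genes, the reverse of the members' order. They were 0.71 for signalling, 0.78 for cytoskeleton and secretion, and -0.24 for transcription factors. Calls were 3 higher and 2 lower of 11 receptors, and 2 higher and 0 lower of 6 granule genes. The 3 lower calls were Tbxa2r (-1.43), Ehd3 (-1.30) and Cd226 (-1.16). The largest rise with DNCB was in P2ry1, the other ADP receptor of platelets, at a log2 fold change of 2.04 ± 0.35 (edgeR adjusted p = 0.000535), followed by the granule tetraspanin Cd63 at 1.81 ± 0.36 (adjusted p = 0.00164). Against DNCB, Cd63 was called lower in scMSC (-1.13) and in scivMSC (-1.24). With TMM scaling it had -0.43 and 0.41 there and was not called. Actn1, which leukocytes use as well, was also called higher in DNCB than in Solvent, at 1.26. The part of leukocytes in these calls was not tested. P2ry1 thus changed in a comparison where P2ry12 had -0.10. The largest changes of scMSC against DNCB were in Tuba8, an alpha tubulin, at 2.47 ± 0.45 (adjusted p = 0.00109), and Gfi1b, a transcription factor of megakaryocytes and erythroid cells, at 2.29 ± 0.48 (adjusted p = 0.00271).

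Among 6 tested megakaryocyte transcription factors, 3 were called higher in each MSC group against DNCB, where 1.27% (scMSC) and 1.43% (scivMSC) of all genes were, and 1 was called lower in scivMSC, where 62% were. The lower one was Fli1 (log2 fold change -1.19, edgeR adjusted p = 0.0114), which under TMM scaling had 0.48 and was not called. Gata1 had 3.11, 2.29 and 1.5 FPKM in Solvent, 2.15, 2.39 and 1.95 in DNCB, 7.06, 8.24 and 9.31 in scMSC, and 9.64, 10.8 and 8.24 in scivMSC. Its log2 fold changes against DNCB were 1.91 ± 0.33 and 2.13 ± 0.33, and Tal1, the last of the 3, had 1.58 and 1.06. Zfpm1, a cofactor of Gata1, was not called, at -0.38 in scMSC and -0.43 in scivMSC, although under TMM scaling it had 1.10 in scivMSC and was called higher. Erythroid precursors share Gata1, Gfi1b and Tal1. Gucy1b1, a subunit of the nitric oxide receptor, was called with Gata1 in scMSC against Solvent, at 1.63 and 1.82. Several lower calls were in genes that leukocytes use as well: against DNCB, scivMSC had -3.09 ± 0.45 for the phospholipase Plcg2 and -2.85 ± 0.35 for Actn1, an actin crosslinker, which were -1.54 and -1.24 under TMM scaling and still called. Between the routes Plcb2 (-1.89, TMM -1.20) and Nbeal2 (-1.50, TMM -0.73) were called lower in scivMSC, and against Solvent Plcb2 (-2.64, TMM -1.36) and Plcg2 (-2.19, TMM -0.73) were. Under TMM scaling the calls of Nbeal2 and Plcg2 in these comparisons were lost.

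By position in the deposited table, Pf4 lies at chr5:90772435-90773383 and Ppbp at chr5:90768518-90770063, both on the plus strand. Gp1bb lies at chr16:18620317-18622403 on the minus strand, and overlaps Septin5 on the same strand, whose mean level was 0.35 FPKM. P2ry12 lies at chr3:59216272-59262871 on the minus strand, and overlaps Med12l on the opposite strand (mean 0.397 FPKM). Of the 33 members, 9 overlap another gene of the table, and no source says whether reads were assigned by strand. The labels name build mm8, while all 33 positions overlap the entry of the same gene in RefSeq on GRCm38.p6 and 23 share its start or end.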

How the data were processed

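The authors deposited 1 table for blood with an estimated count and an FPKM value per gene in each of 12 libraries. Per the labels, Bowtie 0.12.2, HISAT2 2.0, StringTie 1.3.0 and build mm8 were used, and the roles of the tools are not given in the sources used here. The deposited counts are whole numbers, but 29% of the values from 1 to 12 are exactly 4, so they were treated as estimated counts, and intervals that assume single reads were not computed. The deposited FPKM values include haemoglobin in the library total, and for the members they deviated from the counts by at most 0.0954 on the log2 scale. Each table column was matched to its sample by title.

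Genes with at least 1 FPKM in at least 3 libraries were tested (5527 of 25247) with the quasi-likelihood test of edgeR 4.0.16 in R 4.3.3, in a single fit of 12 libraries with 4 group means, scaled by total counts. A call needed a Benjamini-Hochberg adjusted p under 0.05 and a log2 fold change over 1 in size. The test was checked on simulated data. Alternatives were TMM scaling, totals without 10 haemoglobin genes, DESeq2 1.42.0, limma 3.58.1 on log2(FPKM + 1) and log2(FPKM + 0.1), no filter, a mean FPKM of at least 5, the groups of a contrast alone, a replicate block, counts divided by 4, and each library left out. Ratios were tested by exact permutation over 369600 arrangements. Replicates of a group differed by more than sampling noise (chi-square per degree of freedom at least 17.3 on counts divided by 4). That value assumes that 4 counts stand for 1 fragment. The labels give no batch or date.

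The members and gene lists were chosen with earlier results of these data known. Values in every library are given for the 4 members of highest mean FPKM in the granule, surface and signalling groups, the 4 of the last group, and members called against the direction of most. Those of Gp1ba, Itgb3, P2ry12 and Selp were added after their values were seen. Of the other platelet genes, the 2 with the largest change among those called in each contrast are named. Tal1, Fli1, Zfpm1, Tbxa2r, Ehd3 and Cd226 were named after their values were seen.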

Additional observations from a re-analysis of the deposited data

Results flagged for a closer look

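With total scaling, a pair of surface members differed between the MSC routes in the direct test of scivMSC against scMSC, where neither reached a 2-fold change. Gp1bb was higher in scivMSC by a log2 fold change of 0.95 (edgeR adjusted p = 0.0217), with means of 22.2 FPKM in scivMSC and 11.6 FPKM in scMSC. Gp9 was higher by 0.83 (adjusted p = 0.029), with means of 93.4 and 52.8 FPKM. In both genes all 3 scivMSC libraries lay above all 3 scMSC libraries. Under TMM scaling Gp1bb (1.96) and Gp9 (1.87) were over 2-fold and called. There 27 of 30 members passed adjusted p 0.05, against 2 of 30 with total scaling. The share of all genes passing on adjusted p alone was not computed.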

How the results depend on the processing

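Scaling had the most effect. In the order TMM, DESeq2, totals without haemoglobin, members called higher were 11, 11 and 6 in scMSC against DNCB (2 with total scaling), 27, 27 and 12 in scivMSC against DNCB (0), 17, 17 and 2 in scivMSC against scMSC (0), 27, 27 and 17 in scMSC against Solvent (1), and 30, 30 and 25 in scivMSC against Solvent (16). These scalings left 0 members called lower in scMSC against DNCB. In scivMSC against DNCB, TMM and DESeq2 turned the direction of 6 members and called them higher, Ppbp (1.58 and 1.57), F5 (1.38 and 1.38), Gp1bb (1.43 and 1.43), P2rx1 (1.38 and 1.37), F2rl2 (1.44 and 1.44) and Plek (1.54 and 1.54), TMM turned Tgfb1 (0.91), Itgb3 (0.46) and Nfe2 (0.92) without a call, and in scivMSC against Solvent that of Tgfb1 (1.31 and 1.35). With limma on log2(FPKM + 1) the counts were 1 higher in scMSC against DNCB, 1 lower in scivMSC against DNCB (also with log2(FPKM + 0.1)), 4 higher in scMSC against Solvent and 9 higher in scivMSC against Solvent. No filter gave 1 higher in scMSC against DNCB and 1 lower in scivMSC against Solvent. The stricter filter gave 1, 5 and 10 higher in scMSC against DNCB, scMSC against Solvent and scivMSC against Solvent. The groups of a contrast alone gave 2 lower in scMSC against DNCB and 9 higher in scMSC against Solvent, where counts divided by 4 gave 3. For F2rl3 to Itga2b, log2(FPKM + 1) gave an exact permutation p of 0.00597. F2rl3 reached at most 0.558 FPKM, so with 1 added this value mostly followed Itga2b and depended on scaling. It says little about the ratio itself. The cause of the other differences between settings was not tested.

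Replicate numbers are shared between groups, but only 3 of 18 same-numbered pairs of libraries had a correlation of deviations over 0.1 (range -0.286 to 0.156), so the numbers were not taken as pairs. With the replicate block 0 members were called in scMSC against Solvent, 18 higher in scivMSC against Solvent, and 2 higher with 1 lower in scMSC against DNCB. DNCB against Solvent kept a count of 10.

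Leaving out each library in turn gave 1 to 3 members higher and 1 to 2 lower in scMSC against DNCB, 7 to 13 higher in DNCB against Solvent, 0 to 2 higher and 0 to 1 lower in scivMSC against DNCB, 0 to 2 higher in scivMSC against scMSC, 0 to 9 higher in scMSC against Solvent and 12 to 19 higher in scivMSC against Solvent. The exact permutation p ranged from 0.0175 to 0.134 for Pf4 to Itga2b, from 0.0195 to 0.272 for F2rl3 to Itga2b and from 0.000195 to 0.112 for Plek to Itga2b. With 3 mice per group, p values set group differences against the spread between these mice. F2rl3, Selp and Sparc were below the filter, and the main fit did not test them.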
